A study of Mus musculus with 12 samples.

Results

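The genes described here are 10 genes of serine synthesis, one-carbon metabolism and their control: the serine synthesis enzymes *Phgdh*, *Psat1* and *Psph*, the one-carbon enzymes *Shmt1*, *Shmt2* and *Mthfd2*, the transporters *Slc1a4* and *Slc1a5*, the transcription factor *Atf4*, and the asparagine synthetase gene *Asns*. They were chosen by name, and the high abundance of *Psat1* transcripts in these libraries prompted the choice, so its abundance is given below as a description with no test. All 10 were found among the 55416 genes of the count tables, and all 10 passed the filter on low counts. The levels come from bulk RNA-seq of hair cells sorted from the mouse organ of Corti on postnatal day 0 (P0), with 6 pools of inner hair cells (IHCs) and 6 pools of outer hair cells (OHCs). IHCs were collected as cells carrying the *Atoh1*-GFP reporter, and OHCs as cells that carried *Atoh1*-GFP and were also marked by Cre from the *Insm1*-GFP-Cre allele, which switched on TdTomato from the *R26* locus. The labels give the genotype of every pool as WT, so the pools share a wild-type background with these reporter alleles and no treatment, and the contrast is between cell types at a single age. The gate for OHCs rests on where *Insm1* had been active, each pool joined the cells of several unsexed pups, and a difference between bulk pools cannot tell fewer cells of a type from less RNA per cell.

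Serine is made from the glycolytic intermediate 3-phosphoglycerate by 3 enzymes acting in turn. PHGDH oxidizes 3-phosphoglycerate, PSAT1 transfers an amino group from glutamate to the product, and PSPH removes the phosphate to leave serine. The serine hydroxymethyltransferases, SHMT1 in the cytosol and SHMT2 in mitochondria, convert serine into glycine and pass a carbon to folate, and MTHFD2 oxidizes that folate-bound carbon in mitochondria, from where it can feed nucleotide synthesis and methylation. SLC1A4 and SLC1A5 exchange neutral amino acids, serine among them, across the plasma membrane. ATF4 is the transcription factor of the amino acid and integrated stress response, and the serine synthesis genes, *Shmt2*, *Mthfd2*, both transporter genes and *Asns* are among its known targets in other cells.

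The libraries held 31490204 to 44017309 gene counts in IHCs and 29564827 to 39121988 in OHCs. Markers of the sorted cells followed the labels. The summed normalised level of *Otof*, *Slc17a8*, *Tbx2* and *Fgf8* was 1834 to 4284 in IHC libraries, in CPM (counts scaled to a common library size after TMM normalisation), and 360 to 687 in OHC libraries, while that of *Insm1*, *Bcl11b*, *Neurod6* and *Ikzf2* was 2.16 to 23.5 CPM on the IHC side and 105 to 188 CPM on the OHC side, with *Ikzf2* alone of the 4 overlapping between the groups. Markers of supporting cells summed to 150 to 331 CPM in the IHC libraries and to 166 to 360 CPM in the OHC libraries. Within that list *Sox2* was called IHC-enriched (71.6 against 26.8 CPM as means, log2 fold change -1.42, adjusted p = 0.0142), whereas *Fgfr3* (16.8 against 73.1 CPM, log2 fold change 2.12, adjusted p = 0.0722) and *Hes5* (8.08 against 20.2 CPM, log2 fold change 1.32, adjusted p = 0.285) were not called. Nor were *Jag1*, *Lfng* and *Hey1* (adjusted p = 0.560, 0.828 and 0.373 in edgeR's quasi-likelihood test). The neuronal receptor gene *Ntrk3* was called IHC-enriched at a low level (5.67 against 0.167 CPM, log2 fold change -5.05, adjusted p = 0.00865 in edgeR's quasi-likelihood test). The other neuronal markers were too low to be tested. Of these, *Nefh* leaned to OHCs (0.161 against 2.04 CPM as means), and *Prph* and *Tubb3* reached at most 0.061 and 0.554 CPM in a library. Endothelial markers were near 0 in IHCs, at 0.082 to 3.19 CPM summed, and reached 12.8 to 149 CPM in OHCs. There 4 of the 5 (*Cldn5*, *Cdh5*, *Kdr* and *Tek*) lay above every IHC library, as did 2.22% of all genes tested. The summed ranges of the other lists overlapped. They were 8.54 to 34.7 CPM in IHCs against 2.06 to 14.2 in OHCs for mesenchyme, and 15.3 to 72.4 against 4.88 to 36.4 for glia. For macrophages they were 1.73 to 19.6 against 0.087 to 5.47, and erythroid markers reached at most 3.20 CPM. The endothelial markers, *Sox2* and *Ntrk3* moved with the contrast between the cell types. The part of any of these markers in the differences of *Psat1*, *Psph* and the other genes was not tested. IHC replicate 1 stood apart: 56.9% of its gene counts were ribosomal RNA, mitochondrial included, against a median of 31.0% over the 6 IHC libraries. Its TMM factor, which scales the CPM, was 0.486, the lowest of the 12 libraries. In CPM, 5 of the 10 genes had their highest IHC level in this library, where 23.5% of all genes tested did so. OHC replicate 5 likewise held the highest OHC level of 4 of the 10 genes and of 24.2% of all genes tested. Among OHC libraries it had the highest ribosomal share (36.4%) and the lowest TMM factor (0.902). In OHC replicate 2, the counting assigned 33.3% of the counted reads to no annotated feature, against an OHC median of 15.8%. Such reads can include those in introns. Results that rest on IHC replicate 1 are given with and without it.

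Of the 10 genes, *Phgdh* was enriched in IHCs and *Psph* in OHCs, and the other 8 did not pass an adjusted p of 0.05 in edgeR's quasi-likelihood test. Across all 13269 genes tested, 3.81% were called IHC-enriched and 2.44% OHC-enriched by the same rule, so counts of 1 and 1 of 10 describe those genes and not the list. In CPM, the levels of *Phgdh* in every IHC library lay above those in every OHC library, which held for 2.37% of all genes tested. The levels of *Psph* in every OHC library lay above those in every IHC library, which held for 2.22%. At an unadjusted p of 0.05, 5 of the 10 genes and 2889 of all 13269 passed. The median log2 fold change over all genes tested was -0.04, where positive values are higher in OHCs.

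*Psat1*, on chromosome 19 (15882039 to 15924701 in GRCm39, minus strand), was one of the most abundant messenger RNAs of both hair cell types. Per length, as TPM (the share of a library's transcripts, with each gene's counts divided by the length of its exon union), it ranked between 16 and 41 of 21614 nuclear protein-coding genes in the single IHC libraries and between 9 and 12 in the OHC libraries. Its mean was 617 ± 178 TPM in IHCs (SD, n = 6), rank 22, and 1189 ± 175 TPM in OHCs (SD, n = 6), rank 10. Its neighbours in the IHC order were the otoferlin gene *Otof* at 632 TPM and the calmodulin gene *Calm3* at 608 TPM, and in the OHC order they included the translation elongation factor genes *Eef1a1* at 1216 TPM just above and *Eef2* at 954 TPM 2 ranks below. Directly below *Psat1* in OHCs stood *Mfap4*, the gene of a microfibril-associated protein, at 1015 TPM. Each of these neighbours differed from *Psat1* by less than the larger of the SDs of the pair, except *Eef2*, so the exact place is not fixed. The scale matters for the level more than for the rank. The TPM sum includes ribosomal RNA, and the lowest value, 327 TPM, belonged to IHC replicate 1. With the length of the canonical transcript (2620 bases) in place of the exon union (5885 bases), *Psat1* ranked 14 in IHCs and 5 in OHCs.

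**Figure D1:**
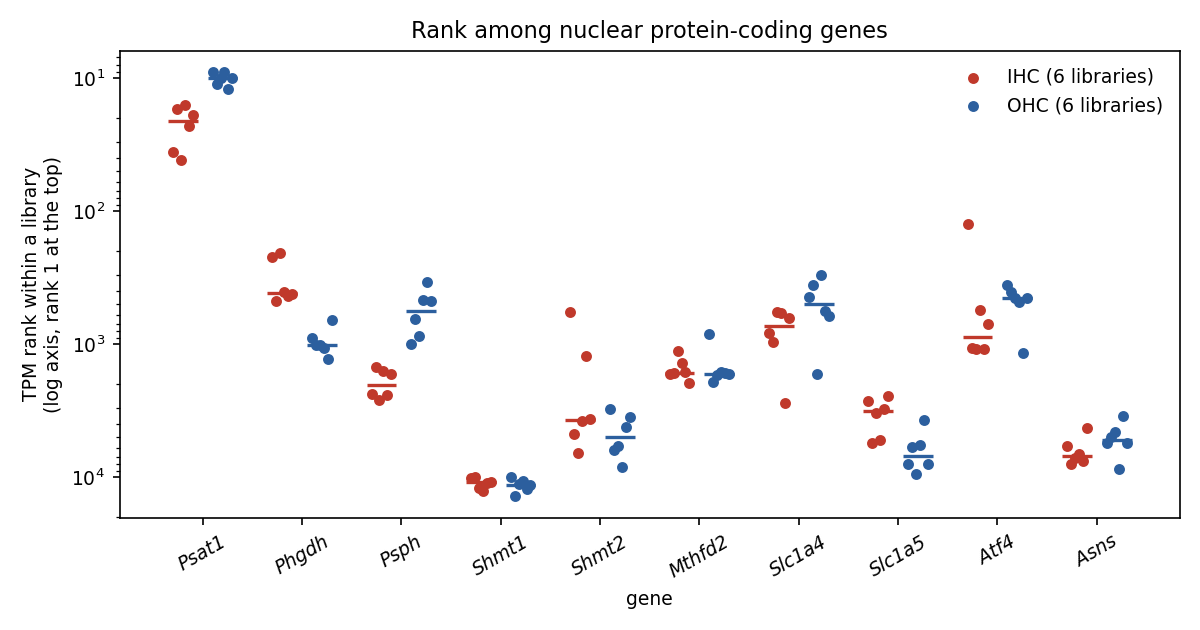
Rank of each of the 10 genes by TPM among 21614 nuclear protein-coding genes (log axis, rank 1 at the top), with 1 point for each library and a bar at the median of the 6 IHC (red) or 6 OHC (blue) libraries. *Psat1* stands apart from the other 9 genes in all 12 libraries, between ranks 9 and 41.

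In IHCs the other 9 genes were far below *Psat1*, and no library of any of them reached the *Psat1* range. *Phgdh* was second at 121 ± 47 TPM (SD, n = 6), followed by *Atf4*, *Slc1a4*, *Mthfd2*, *Psph*, *Shmt2*, *Slc1a5* and *Asns*. In this run each gene's range over the 6 libraries overlapped that of the next. The order of neighbours is therefore not resolved, except that *Slc1a5* lay above *Asns* in every IHC library. *Asns* had 6.46 ± 6.16 TPM and *Shmt1* was lowest at 0.375 ± 0.364 TPM, below *Asns* in every library. In OHCs *Atf4* was second at 103 ± 35 TPM, followed by *Slc1a4*, *Psph* (89.4 ± 18 TPM), *Phgdh* (62.5 ± 13.3 TPM) and *Mthfd2*, again with overlapping neighbours. *Mthfd2* lay above *Shmt2* in every OHC library, and the ranges of *Shmt2*, *Asns* and *Slc1a5* overlapped in turn. *Shmt1* was again lowest, at 0.634 ± 0.649 TPM. The places between depended on the length used. With canonical transcript lengths *Psph* was second in OHCs at 216 ± 46.3 TPM, above *Atf4* (111 ± 35.3 TPM) and *Slc1a4* (82.5 ± 32.2 TPM), and in IHCs it followed *Atf4* at 76.9 ± 31.1 TPM.

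The serine synthesis genes differed between the cell types in opposite directions. *Phgdh*, the gene of the first enzyme, on chromosome 3 (98220484 to 98255047, minus strand), ranged from 102 to 272 CPM in IHCs with a median of 115, and from 50.6 to 74.9 CPM in OHCs with a median of 55.1. On this scale the groups did not overlap, and IHC replicates 1 and 3 held the 2 highest values. In TPM the lowest IHC value, 78.5, fell just below the highest OHC value, 79.1. The fitted level was 2.63-fold higher in IHCs (log2 fold change -1.39, SE 0.27, adjusted p = 0.00298 in edgeR's quasi-likelihood test). Without IHC replicate 1 the log2 fold change was -1.16 (adjusted p = 0.0039). *Phgdh* has 9 processed pseudogenes in the count tables that match its transcript at 95% identity or more, the highest of which reached 192 counts in a library, while the gene itself had 1602 counts or more in every library. Reads that align to several places were set aside by the counting (5.89% to 14.7% of counted reads), so the level of *Phgdh* is uncertain and may be understated in both cell types.

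*Psph*, the gene of the last enzyme, on chromosome 5 (129841925 to 129864513, minus strand), ranged from 71.3 to 112 CPM in IHCs with a median of 96.2, and from 143 to 370 CPM in OHCs with a median of 215. Again the groups did not overlap, here with every OHC library on the high side. The fitted level was 2.45-fold higher in OHCs (log2 fold change 1.30, SE 0.25, adjusted p = 0.00269). Leaving out each library in turn kept both calls, with log2 fold changes of -1.49 to -1.16 for *Phgdh* and 1.10 to 1.38 for *Psph*. The *Psph* exons share 465 bases, 6.32% of their union, with *Cct6a* on the other strand, a chaperonin subunit gene, and the strand setting of the counting is not given in the sources used here. Under the intersection-nonempty rule of the counting, reads wholly inside that stretch would be left uncounted if strand was ignored, and assigned by strand otherwise. *Cct6a* was the more abundant of the pair, with an IHC mean of 316 ± 59.5 CPM and an OHC mean of 492 ± 51.0 CPM (SD, n = 6 each), beside means of 92.3 and 227 CPM for *Psph*, and was itself higher in OHCs by a log2 fold change of 0.64 (adjusted p = 0.035 in edgeR's quasi-likelihood test).

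*Psat1*, the gene of the middle enzyme, ranged from 1171 to 2195 CPM in IHCs with a median of 1488, and from 1983 to 2859 CPM in OHCs with a median of 2315. On this scale 5 of 6 IHC libraries lay below every OHC library, and IHC replicate 1 alone reached into the OHC range. In TPM, whose sum includes ribosomal RNA, the ranges were apart, at 327 to 873 in IHCs and 1056 to 1528 in OHCs. The fitted difference, which uses the TMM scale, was 1.48-fold towards OHCs (log2 fold change 0.57, SE 0.18). It missed the threshold, with an adjusted p of 0.0627 in edgeR's quasi-likelihood test. It fell on the other side without IHC replicate 1 (log2 fold change 0.68, adjusted p = 0.00719), with DESeq2 (adjusted p = 0.0397) and under other filters on genes, whereas leaving out any of the other 11 libraries gave adjusted p values from 0.0626 to 0.143. The size was similar throughout, between 0.48 and 0.68 when single libraries were left out.

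**Figure D2:**
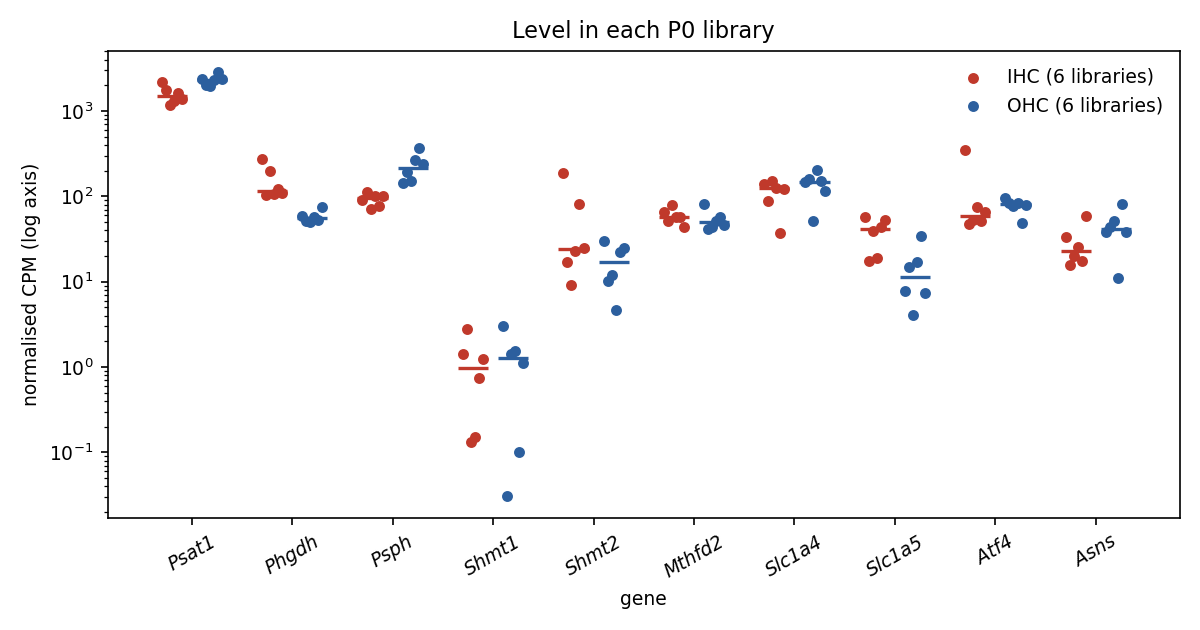
Normalised level of each gene in CPM (log axis), with 1 point for each library and a bar at the median of the 6 IHC (red) or 6 OHC (blue) libraries. The points of *Phgdh* (IHC 102 to 272, OHC 50.6 to 74.9) and *Psph* (IHC 71.3 to 112, OHC 143 to 370) separate without overlap, and IHC replicate 1 lies far above its group for *Atf4* and *Shmt2*.

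The proportions of the 3 serine synthesis transcripts within a library therefore differed between the cell types. These ratios were formed after the levels had been seen and are given with no test. Within each library, the ratio of *Psph* to *Phgdh* on the TPM scale was 0.128 to 0.420 in IHCs, with a median of 0.300, and 0.927 to 2.66 in OHCs, with a median of 1.32. *Phgdh* was thus the more abundant of the pair in every IHC library, and *Psph* in 5 of 6 OHC libraries. With canonical transcript lengths the ratios were 0.260 to 0.852 in IHCs and 1.88 to 5.40 in OHCs. The ratio of *Psat1* to *Phgdh* was 2.81 to 8.14 in IHCs and 15.1 to 25.7 in OHCs, and these ranges too were separate. The ratio of *Psat1* to *Psph* overlapped, at 15.8 to 30.2 in IHCs and 9.64 to 20.8 in OHCs. *Psat1* exceeded both of its neighbours in the pathway in all 12 libraries.

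**Figure D3:**
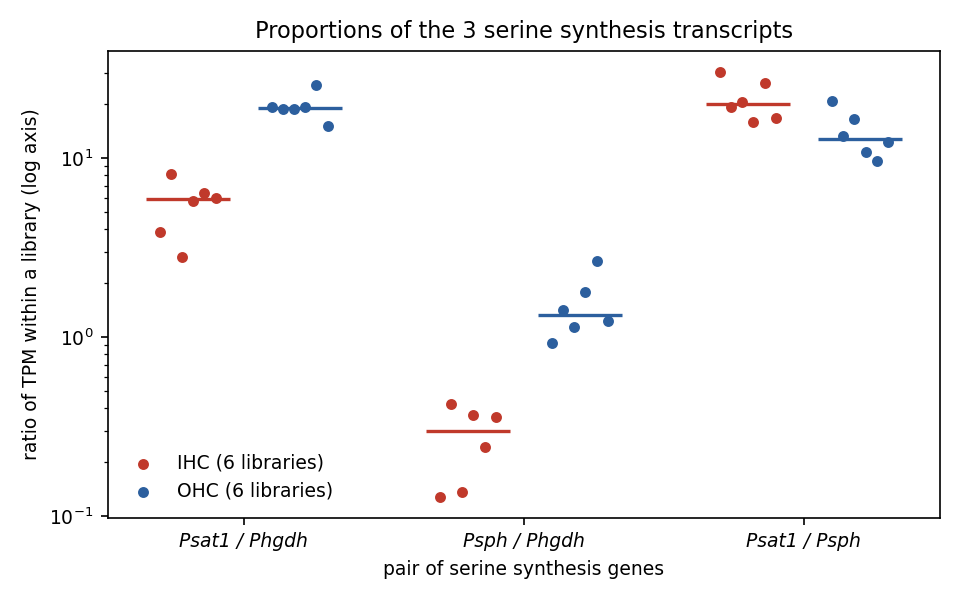
Ratios between the 3 serine synthesis genes on the TPM scale within each library (log axis), with 1 point for each library and a bar at the median of the 6 IHC (red) or 6 OHC (blue) libraries. *Psat1* over *Phgdh* and *Psph* over *Phgdh* were higher in every OHC library than in any IHC library, and *Psat1* over *Psph* overlapped.

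Among the one-carbon genes no call was made. *Shmt2*, the mitochondrial hydroxymethyltransferase, ranged from 9.16 to 189 CPM in IHCs with a median of 24.0, and from 4.59 to 30.2 CPM in OHCs with a median of 17.0. IHC replicates 1 and 5, at 189 and 82.1 CPM, were the only libraries above every OHC library, and the other 4 IHC libraries lay within the OHC range. The log2 fold change of -1.73 (SE 0.63, adjusted p = 0.112) shrank to -0.86 (adjusted p = 0.406) without IHC replicate 1, so 1 library made up much of it. *Mthfd2*, the mitochondrial dehydrogenase, had similar levels in both cell types, at 43.9 to 79.0 CPM for IHCs and 40.8 to 81.4 CPM for OHCs. The log2 fold change was -0.13 (SE 0.27, adjusted p = 0.811), and 2 SE on either side reached from -0.66 to 0.40, which leaves room for a difference of that size. *Shmt1*, the cytosolic enzyme, was barely detected, with between 1 and 142 counts in a library and medians of 0.980 CPM for IHCs and 1.27 CPM for OHCs. Its levels varied between libraries of the same cell type, with a coefficient of variation of 92.2% in IHCs and 92.1% in OHCs, and no difference was detectable against that spread (log2 fold change 0.17, SE 1.03, adjusted p = 0.943), the sign of which turned when single libraries were left out. The *Shmt1* exons share 346 bases with *Smcr8* on the other strand, whose counts reached 3084 in a library. Here too, reads wholly inside the shared stretch would be left uncounted if strand was ignored, so the level of *Shmt1* is uncertain. The *Shmt2* exons share 727 bases with *Ndufa4l2* on the other strand, which had at most 12 counts in a library.

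The transporter genes went in different directions without passing the test. *Slc1a5*, which encodes the exchanger of glutamine and other neutral amino acids, ranged from 17.7 to 57.8 CPM in IHCs with a median of 41.8, and from 4.04 to 34.0 CPM in OHCs with a median of 11.3. In 4 IHC libraries the level exceeded that of all OHC libraries, and among OHCs replicate 5 alone reached into the IHC range. The log2 fold change was -1.44 (SE 0.50, adjusted p = 0.0911). Without OHC replicate 5 it was -1.91 and passed (adjusted p = 0.025), and DESeq2 and edgeR's exact test also called it (adjusted p = 0.0311 and 0.049). *Slc1a4*, which encodes the exchanger of alanine, serine and cysteine, was more abundant. It ranged from 37.2 to 150 CPM in IHCs with a median of 124, and from 51.2 to 202 CPM in OHCs with a median of 148. These ranges overlapped widely (log2 fold change 0.31, SE 0.32, adjusted p = 0.615), and each group held 1 library far below the rest, IHC replicate 5 and OHC replicate 3.

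*Atf4* showed the largest departure of a single library. In IHC replicate 1 it stood at 344 CPM, while the other 5 IHC libraries lay between 46.8 and 74.9 CPM and the OHC libraries between 48.5 and 96.6 CPM, with a median of 81.5. Over all libraries the log2 fold change was -0.44 (SE 0.42, adjusted p = 0.585). Without IHC replicate 1 its sign turned to 0.41 (SE 0.24, adjusted p = 0.358), so no direction between the cell types can be given. On the CPM scale the same library held the highest IHC level of *Psat1* (2195 CPM), *Phgdh* (272 CPM), *Shmt2* (189 CPM) and *Slc1a5* (57.8 CPM). It did not hold that of *Psph* (90.7 CPM, against up to 112 in the other IHC libraries), *Mthfd2*, *Slc1a4*, *Shmt1* or *Asns*. In TPM it held the highest IHC level of *Atf4* alone (127 TPM). There *Psat1* was at 327 TPM, the lowest of the 12 libraries, and *Phgdh*, *Shmt2* and *Slc1a5* were at 84.3, 40.4 and 9.35 TPM. Their highest IHC values, in other libraries, were 204, 50.8 and 36.8 TPM. The high ribosomal share of IHC replicate 1 moved with these values, and the part of that share in them was not tested.

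*Asns*, which makes asparagine from aspartate and glutamine, ranged from 15.7 to 58.3 CPM in IHCs with a median of 22.8, and from 11.1 to 80.9 CPM in OHCs with a median of 40.9. The groups overlapped and the log2 fold change of 0.62 (SE 0.43, adjusted p = 0.423) did not pass. In IHC replicate 1 *Asns* stood at 33.7 CPM, below IHC replicate 6 at 58.3 CPM.

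The binding motif of ATF4 dimers, searched as TGATGNAA and, for the other strand, as TTNCATCA, was looked for from 250 bases before to 50 bases after the start of each gene in RefSeq promoter windows of build GRCm38.p6. Of the 9 genes with a window, *Asns* and *Slc1a4* held a match, where 4.51% of 27025 genes did so. These 2 stretches are shown because they carry the matches of the letters, which stand in capitals, each with 11 bases on either side and read along the gene's own strand.
Asns, chr6:7693214-7693243, minus strand: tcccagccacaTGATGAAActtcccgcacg
Slc1a4, chr11:20332699-20332728, minus strand: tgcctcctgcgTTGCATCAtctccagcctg
The first base of the match lay at position -23 for *Asns* and -4 for *Slc1a4*, counted from 0 at the annotated start. Neither gene passed the test between the cell types. The windows of *Phgdh*, *Psph*, *Psat1*, *Shmt1*, *Shmt2*, *Mthfd2* and *Atf4* did not hold these letters, which says nothing of more distant sites or of binding.

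**Figure D4:**
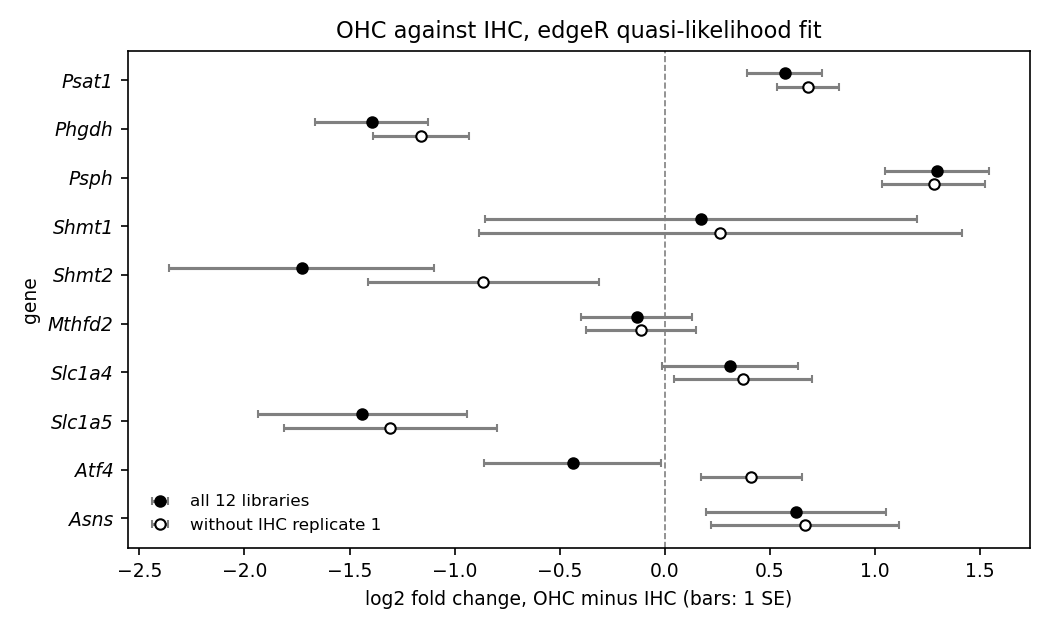
Log2 fold change of OHCs over IHCs for each gene, with 1 SE on either side, fitted on all 12 libraries (filled) and without IHC replicate 1 (open). *Phgdh* (-1.39 and -1.16) and *Psph* (1.30 and 1.28) hold their place, *Shmt2* moves from -1.73 to -0.86, and *Atf4* changes sign from -0.44 to 0.41.

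The wider pathway was followed through 117 further genes in 10 lists, of which 96 passed the filter on low counts. Of these, 4 were called IHC-enriched and 3 OHC-enriched, 7.29% in all, beside 6.26% of all genes tested. The calls fell in 4 of the 10 lists. The list of enzymes that use serine, in which the SERINC membrane proteins had been placed, held 3 of the 7 among its 10 tested genes. All 3 were SERINC genes rather than enzymes. *Serinc1* was higher in OHCs (93.5 to 126 CPM against 32.6 to 72.9 in IHCs, log2 fold change 0.995, SE 0.25, adjusted p = 0.0207), and so was *Serinc5* (44.9 to 110 against 11.6 to 43.5 CPM, log2 fold change 1.15, SE 0.32, adjusted p = 0.0386). *Serinc2* was higher in IHCs (97.9 to 246 CPM against 22.8 to 64.9 in OHCs, log2 fold change -1.89, SE 0.29, adjusted p = 0.000463). None of these 3 ranges overlapped between the cell types. Of all genes tested, 2.37% lay apart with IHCs above and 2.22% with OHCs above. *Serinc3*, the most abundant SERINC gene in CPM, averaged 558 CPM over IHC and 500.2 CPM over OHC libraries, a log2 fold change of -0.16 (adjusted p = 0.724). The call of *Serinc1* was lost without OHC replicate 4 (adjusted p = 0.0511), and that of *Serinc5* was held in 4 of 12 fits that left out a library each, with adjusted p values up to 0.0939.

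*Slc3a2*, the heavy chain that carries several amino acid exchangers to the cell surface, was called IHC-enriched, at 42.9 to 495 CPM against 16.7 to 86.2 CPM for OHCs (log2 fold change -1.70, SE 0.48, adjusted p = 0.0364). The groups overlapped, IHC replicate 1 held the highest value, and without it the log2 fold change was -1.10 (adjusted p = 0.107). The call was kept in 5 of the 12 fits that left out a library each. *Slc7a5*, a light chain partner of SLC3A2, did not pass (log2 fold change -0.99, SE 0.39, adjusted p = 0.142). *Gpt2*, the mitochondrial alanine transaminase and a known ATF4 target, was OHC-enriched, at 23.8 to 60.8 CPM against 14.5 to 20.9 CPM for IHCs (log2 fold change 1.38, SE 0.33, adjusted p = 0.0148). It was the only one of 13 tested genes of the ATF4 stress target list to be called, 7.69% beside 6.26% of all genes tested. The median of that list was -0.34.

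In the glycolysis list, which also holds genes that act after 3-phosphoglycerate, 2 of 13 tested genes were IHC-enriched, beside 3.81% of all genes tested. *Hk1*, the hexokinase that opens the pathway, had 27.2 to 81.0 CPM in IHCs against 9.57 to 22.5 CPM for OHCs (log2 fold change -1.63, SE 0.35, adjusted p = 0.00746). *Gapdh*, whose product supplies the substrate of the step that forms 3-phosphoglycerate, had 778 to 1564 CPM in IHCs against 503 to 764 CPM for OHCs (log2 fold change -0.82, SE 0.20, adjusted p = 0.0172). Neither range overlapped, where 2.37% of all genes tested had every IHC library above every OHC library. The calls of *Hk1*, *Gapdh*, *Gpt2* and *Serinc2* were kept in each of the 12 fits that left out a library. The list median was -0.45, with 9 genes below 0 and 4 above. In CPM, IHC replicate 1 held the highest IHC value of 6 of the 14 genes, where it did so for 23.5% of all genes tested. Over all genes tested, 6871 lay below 0 and 6398 above.

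No gene was called among the folate one-carbon enzymes (12 of 15 tested, median 0.85), the folate and serine carriers (6 of 8 tested, median 0.04), the glycine cleavage system (3 of 4 tested, median 0.49), the methionine cycle and transsulfuration (9 of 12 tested, median 0.34), the cytosolic aminoacyl-tRNA synthetases (18 of 18 tested, median 0.14) and the eIF2 kinases (4 of 4 tested, median 0.56). At an unadjusted p of 0.05 in the same edgeR test, 10 of the 52 tested genes of these 6 lists passed (19.2%), 5 of them synthetases, where 21.8% of all genes tested passed. DESeq2 called *Iars1*, *Hars1* and *Mtrr* of these lists. In CPM, IHC replicate 1 held the highest IHC value of 9 of the 18 synthetases and of 4 of the 17 ATF4 stress targets, beside 23.5% of all genes tested.

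**Figure D5:**
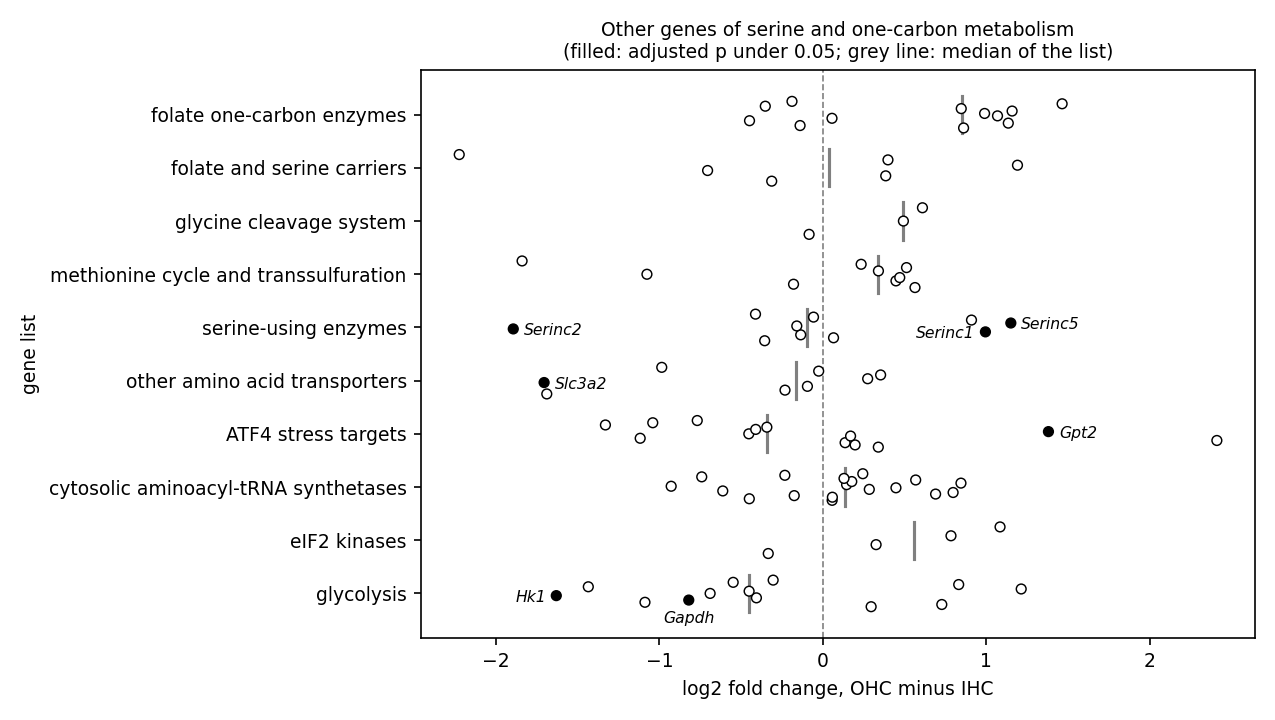
Log2 fold change of OHCs over IHCs for the 96 tested genes of 10 lists around serine and one-carbon metabolism, with 1 point for each gene, filled where the adjusted p was under 0.05, and a grey line at the median of each list. The 7 filled points are *Serinc2*, *Slc3a2*, *Hk1* and *Gapdh* on the IHC side and *Serinc1*, *Serinc5* and *Gpt2* on the OHC side.

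None of the correlations between *Psat1* and the other 9 genes passed after adjustment, by either coefficient, and pairs among those 9 were not tested. After the mean of each cell type was taken off, the correlation of *Psat1* with the other 9 genes over 12 libraries (log2 CPM) was highest for *Shmt2*, with Pearson's r = 0.72 (permutation p = 0.0223, adjusted p = 0.201 over 9 relations) and Spearman's rho = 0.62 (permutation p = 0.0665, adjusted p = 0.598). Without the 2 libraries farthest from the median of *Psat1*, IHC replicates 3 and 4, r was 0.62. Within the cell types r was 0.81 over the 6 IHC libraries and 0.46 over the 6 OHC libraries. For the neighbours in the pathway, r was 0.34 for *Phgdh* and 0.41 for *Psph* (adjusted p = 0.631 and 0.472). These values rested in part on IHC replicate 1. Over the 11 libraries without it, r was 0.50 for *Shmt2* and 0.56 for *Psph*, and the sign turned for *Phgdh* (-0.33), *Atf4* (0.46 with it and -0.59 without it), *Slc1a4* (0.02 and -0.17) and *Asns* (0.09 and -0.0290).

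Over the 12 libraries as they stand, with the difference between cell types left in, the protein-coding genes most like *Psat1* among 11803 were *BC031181* (r = 0.97), *Arl15* (r = 0.95), *Sec11a* (r = 0.95), *Col4a1* (r = 0.92) and *Mrfap1* (r = 0.92). Of the 9 other genes, *Psph* came closest, at r = 0.79 and place 110, and *Phgdh* ran opposite, at r = -0.54. *Col4a1*, a basement membrane collagen gene also expressed by endothelial cells, was itself higher in OHCs (4.38 against 28.9 CPM as means, log2 fold change 2.73, adjusted p = 0.0179), as were the endothelial markers. These values describe how levels lined up over libraries that share the cell type contrast, and carry no test.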

How the data were processed

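The files hold raw counts of reads per Ensembl gene for each of the 12 libraries. To make these counts before they were deposited, the authors trimmed reads with Trimmomatic, aligned them to GRCm39 with STAR, and ran HTSeq on GENCODE vM27 genes, resolving overlaps by the intersection-nonempty rule. Tool versions and the strand setting are not given in the sources used here. Ribosomal RNA had been depleted and the cDNA amplified, with no molecular identifiers. The 5 summary lines of each file (24.2% to 46.1% of counted reads) were left out of library sizes and tests.

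Symbols and exon lengths came from GENCODE vM39 of the same build, which matched 98.8% of the IDs. OHC and IHC libraries were compared with edgeR 4.0.16 (filterByExpr with a minimum count of 10, TMM normalisation, glmQLFit and glmQLFTest, no covariate), two-sided, with Benjamini-Hochberg adjustment over 13269 genes and a threshold of 0.05. The code was tested on simulated counts of 13058 genes, of which 200 were changed 4-fold. It recovered 67 of these with 2 false calls, so a gene that was not called may still differ. The SE of a log2 fold change is not an output of this test. It was derived as the absolute log2 fold change divided by the square root of the F statistic, and is approximate. CPM uses TMM library sizes, log2 CPM a prior count of 2, and correlations 100000 permutations. Copies of the genes were searched with blastn 2.17.0, and DESeq2 1.42.0 served as an alternative. Replicates are pools the study treats as separate, and a p-value measures the spread between these pools. The 10 genes and all lists were chosen with earlier results of these data known. Named besides the 10 genes were the pathway genes called (in lists with more than 5 calls, the 4 with the largest change), the 5 genes most like *Psat1*, and markers or overlapping genes beside a value they touch. *Serinc3*, *Slc7a5*, the ranking neighbours of *Psat1* and the genes that DESeq2 called were named after their values were seen.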

Additional observations from a re-analysis of the deposited data

Results flagged for a closer look

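In each group of 6 libraries the gap between the most extreme library and the nearest of the others was compared with the range of the group (Dixon's test, critical value 0.625). For the 10 genes this gave 20 groups, of which 2 stood out, and chance marks about 1 in 20. *Atf4* stood at 344 CPM in IHC replicate 1, while the other 5 IHC libraries ranged from 46.8 to 74.9 CPM. *Phgdh* stood at 74.9 CPM in OHC replicate 6, while the other 5 OHC libraries ranged from 50.6 to 59.5 CPM, and the value was still below every IHC library (102 CPM or more).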

How the results depend on the processing

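Each log2 fold change of the 10 genes was recomputed under other settings, and 184 of 199 values kept their direction and their side of the threshold, including all those of *Phgdh* and *Psph*. In 9 a gene newly passed, namely *Psat1* or *Slc1a5* (both named in the report), and in 6 the sign turned. The sign of *Shmt1* turned in 3 fits that left out a library (range -0.36 to 0.73), and that of *Atf4* turned without IHC replicate 1 (range -0.62 to 0.41), at 0.40 without both IHC replicate 1 and OHC replicate 2, a setting chosen after seeing the data, and at 0.0128 with the replicate block. DESeq2 gave no adjusted p for *Atf4*. Counts of the 10 genes called were 1 or 2 on each side: 2 IHC-enriched with the exact test, with DESeq2 or without OHC replicate 5, and 2 OHC-enriched with DESeq2, with all genes that had a count, with at least 10 counts in every library (9 of the 10 genes tested), without ribosomal, mitochondrial and haemoglobin genes, without IHC replicate 1, or without IHC replicate 1 and OHC replicate 2. Leaving out a library each, pathway genes called ranged from 3 to 6 (IHC) and from 1 to 4 (OHC). DESeq2 called 7 and 6 of them, and the unfiltered fit 5 OHC-enriched. Over all genes, DESeq2 called 1339 IHC-enriched and 1590 OHC-enriched among 16911 tested, the unfiltered fit 893 and 918, and the exact test 751 and 519, beside 506 and 324. Of the settings on scaling, none moved the median log2 fold change over the genes of the main comparison by more than 0.1.

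No pairing by replicate number was seen in the levels: same-numbered IHC and OHC libraries correlated at -0.031 to 0.018 in their deviations. Of the 6 IHC libraries, 0 correlated best with its own number. Whether same-numbered pools came from the same pups cannot be told from these correlations. With the replicate number as a block, 512 and 391 genes were called, still with 1 and 1 of the 10 genes, and 4 and 2 pathway genes.

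The level of *Psat1* was 2372 TPM in IHCs and 4009 TPM in OHCs when scaled over nuclear protein-coding genes alone, with ranks 23 and 10. With canonical transcript lengths, a setting chosen after seeing the data, it was 1132 and 2123 TPM, with OHC rank 5. Leaving out the 20 most abundant genes gave no value, since *Psat1* is one of them. The correlation of *Psat1* turned negative for *Shmt1* (-0.13, OHC libraries alone), *Mthfd2* (-0.0795, IHC alone), *Slc1a4* (-0.27 as Spearman's rho and -0.20 in IHC alone), *Atf4* (-0.014 as rho and -0.64 in OHC alone) and *Asns* (-0.0236, IHC alone). Without IHC replicate 1, a setting chosen after seeing the data, it was negative for *Phgdh* (-0.33), *Slc1a4* (-0.17), *Atf4* (-0.59) and *Asns* (-0.0290). *Shmt1* had 1 to 142 counts in a library. Intervals cover the spread between libraries only.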
